A study of Mus musculus with 6 samples.

Results

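Exonic circRNAs whose 2 back-splice ends lie at least 50 kb apart in the genome were followed in the striatum of mice lacking HuD. A circRNA entered when the array annotation called it exonic and its end minus its start was 50 kb or more. The annotation was held for 3056 of the 14236 circRNA probes of the array, namely those in the deposited tables of circRNAs higher or lower in HuD KO and those in the study's list of circRNAs that co-purified with HuD. The rule gave 267 circRNAs from 221 host genes, against 2067 annotated exonic circRNAs of shorter span. Of the 267, 146 came from the table of higher circRNAs alone, 59 from the table of lower circRNAs alone, 46 from the HuD-bound list alone, 15 from the higher table and the bound list, and 1 from the lower table and the bound list.

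The 3 HuD KO arrays carried RNA from adult mice with both copies of Elavl4 deleted, and the 3 WT arrays RNA from littermates with intact Elavl4, all on the C57BL6 strain and all labelled male. No other allele or treatment was named for either group, and the age was given as adult only. The deletion was constitutive, and so not restricted to neurons or to the adult. Striatal total RNA was digested with RNase R, which degrades linear RNA, and hybridized in one colour, 1 array per sample. The HuD-bound list came from other animals. These were transgenic mice expressing myc-tagged HuD under the Camk2a promoter, which drives expression in forebrain neurons, so the list holds circRNAs that met an excess of HuD there.

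A circRNA forms when the spliceosome joins the 5′ splice site of an exon back to the 3′ splice site of an upstream exon. The span between these sites can contain long introns, and most of it is spliced out of the circle, so a circRNA with a wide span need not be a long molecule. Wide spans require long genes. In the brain, long genes often encode adhesion molecules, synaptic scaffolds, ion channels and signalling enzymes. HuD (ELAVL4) is a neuronal RNA-binding protein that recognizes AU-rich and U-rich elements and acts on splicing, stability and transport of its target RNAs.

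Each probe was a 60-base oligonucleotide laid across the back-splice junction, so circles that share one splice end share part of their probe. These 3 pairs from Kcnt2, Erc1 and Zfp609 are shown because each holds a long member and a circle that starts or ends at the same exon, with the bases found in both probes in capitals. Coordinates are those of the deposited annotation, which did not name its build, and the RefSeq gene table of GRCm38 placed every host it could match around its circle.
Kcnt2 mmu_circRNA_016043, chr1:140362948-140450304, plus strand: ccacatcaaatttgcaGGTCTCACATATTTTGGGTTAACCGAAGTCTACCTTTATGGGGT
Kcnt2 mmu_circRNA_012594, chr1:140362948-140383095, plus strand: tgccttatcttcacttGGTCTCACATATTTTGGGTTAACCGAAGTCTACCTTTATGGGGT
Erc1 mmu_circRNA_017168, chr6:119694570-119773901, minus strand: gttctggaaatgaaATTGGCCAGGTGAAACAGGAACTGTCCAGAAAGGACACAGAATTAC
Erc1 mmu_circRNA_006367, chr6:119722172-119773901, minus strand: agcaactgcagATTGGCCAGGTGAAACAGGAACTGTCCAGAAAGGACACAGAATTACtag
Zfp609 mmu_circRNA_017858, chr9:65730975-65795495, minus strand: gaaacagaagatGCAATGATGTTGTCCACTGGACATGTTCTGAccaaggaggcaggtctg
Zfp609 mmu_circRNA_004501, chr9:65794621-65795495, minus strand: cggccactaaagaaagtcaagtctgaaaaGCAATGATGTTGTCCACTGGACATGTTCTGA

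Among all members there were 17 such pairs, 3 of them between 2 members, with 12 to 48 bases in common. In all 17 the 2 circles changed in the same direction in HuD KO. For circles of the deposited tables the direction was a condition of entry. Values of such pairs are not independent, since a cRNA from one circle could bind in part to the probe of the other.

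AU-rich elements were searched for as ATTTA on the probe strand, which is the RNA sense. Of the 62 members in the HuD-bound list, 6 had it in their junction probe (9.68%), against 20 of 512 other HuD-bound exonic circRNAs (3.91%) and 127 of all 3056 annotated circRNAs (4.16%). Over all 267 members the share was close to that of shorter exonic circRNAs, 12 (4.49%) against 87 of 2067 (4.21%). A match describes the 60 bases at the junction and not the rest of the circle. The 6 probes follow, ordered by their change in HuD KO, with the motif in capitals.
Epha7 mmu_circRNA_36575, chr4:28817444-28943378, plus strand: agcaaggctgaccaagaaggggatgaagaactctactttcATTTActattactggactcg
Rbfox1 mmu_circRNA_29181, chr16:7292184-7363904, plus strand: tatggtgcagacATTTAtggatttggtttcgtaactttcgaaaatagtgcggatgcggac
Camta1 mmu_circRNA_37975, chr4:151453283-151586482, minus strand: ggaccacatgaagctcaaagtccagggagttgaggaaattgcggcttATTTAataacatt
Mapk10 mmu_circRNA_39064, chr5:102963466-103058392, minus strand: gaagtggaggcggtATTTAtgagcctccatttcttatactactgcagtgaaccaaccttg
Trim37 mmu_circRNA_24020, chr11:87145463-87209887, plus strand: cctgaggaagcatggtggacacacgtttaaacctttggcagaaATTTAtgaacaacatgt
Rims1 mmu_circRNA_19745, chr1:22373343-22538623, minus strand: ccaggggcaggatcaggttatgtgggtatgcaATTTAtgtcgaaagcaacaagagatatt
Their log2 changes were 0.09, 0.28, 0.40, 0.66, 1.13 and 1.59 in that order, a median of 0.53. This was close to the median of 0.54 over all 62 HuD-bound members.

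Levels are given as log2 of the processed signal minus the 75th percentile of the circRNA probes on the same array, so 0 lies at that percentile. An array had 84.0% to 96.7% of its circRNA probes well above background, HuD KO 1 the fewest. Of 13431 circRNAs tested with limma, 26.1% were called higher and 37.2% lower in HuD KO at an adjusted p under 0.05, and in 70.2% the levels of the 2 groups did not overlap. HuD KO 1 and 2 shared one scan, HuD KO 3 had its own and the 3 WT arrays had another, so scan and genotype cannot be told apart. The signal of the circRNA moved with the change over the whole array, from a median log2 change of -1.59 in the dimmest of 10 equal classes of tested circRNAs to 0.48 in the brightest. No annotated circRNA was hosted by Elavl4, so the deletion could not be checked here. Each array was 1 mouse, and p-values weigh the difference between the 2 groups against the spread between the 3 arrays within a group.

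The sex-linked circRNAs did not follow the labels. The Xist circRNA mmu_circRNA_45649, from the RNA that coats the inactive X chromosome of female cells, had levels of -1.27, -1.40 and -1.39 in WT and of -6.60, -7.84 and -7.56 in HuD KO. It was well above background in every array labelled WT and in none labelled HuD KO. Of 8 annotated Y-linked circRNAs, 6 were higher and 2, from Sry and Ddx3y, lower in HuD KO. The Sry circRNA changed by -4.57, and was well above background on all 3 WT arrays at -0.23, -0.43 and -0.74. Also well above background on every WT array were the circRNAs of Kdm5d and Ddx3y, mmu_circRNA_45989 of Eif2s3y, and mmu_circRNA_45994 and mmu_circRNA_46001 of Uty. The member circUty mmu_circRNA_45997 (69.6 kb) had levels of -1.95, -1.32 and -0.57 in HuD KO and was not well above background on any WT array, at -5.32, -5.05 and -5.07, which made it at least 11.3-fold higher in HuD KO (adjusted p = 6.52e-05, limma). It was in the higher table and passed the filter on dim probes through HuD KO alone, so these values are a description. All 6 labels read male, and a difference in sex between the groups and the difference in genotype cannot be told apart in any value below. With the 8 X-linked and 2 Y-linked members left out, 152 of 211 members of the deposited tables were in the higher table (72.0%), and no HuD-bound member was X- or Y-linked.

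Of the cell type markers, 9 circRNAs from 5 striatal projection neuron genes were tested, and all 9 were well above background on all 6 arrays. Their summed level, as linear signal relative to the 75th percentile, was 62.6 to 73.4 in WT and 32.5 to 34.5 in HuD KO, with 3 circRNAs higher and 2 lower. The lower ones, both in the lower table, were circFoxp1 mmu_circRNA_40615 (a mean level of 4.71 in WT and 1.01 in HuD KO) and circAdcy5 mmu_circRNA_29619 (4.55 and 2.76), and the changes of the other 7 ran from -0.27 to 1.29. Oligodendrocyte marker genes had 7 circRNAs, 6 of them well above background on all 6 arrays. Of the 7, 0 were higher and 5 lower, and their summed level was 7.24 to 7.86 in WT and 3.51 to 4.88 in HuD KO. All 5 were in the lower table, so their fall was a condition of entry. One of the 5, mmu_circRNA_011481 at Vcan, was annotated as antisense and had a mean level of -1.62 in WT and -5.20 in HuD KO. The Qk circRNAs, which came from the HuD-bound list, changed by 0.003 and 0.26 and were not called. Astrocyte genes had 5 circRNAs, 3 higher and 2 lower, summing to 8.86 to 9.97 in WT and 10.8 to 12.9 in HuD KO. The lower ones, from Ppap2b and Gli3, were in the lower table, and of the higher ones that of Bmpr1b was in the higher table. The single microglia marker circRNA was lower, and it too came from the lower table. Of these 22 circRNAs, 10 were annotated through the deposited tables alone. In bulk tissue, fewer cells of a type and less RNA per cell cannot be told apart, and the part of cell composition in the values below was not tested.

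The spans of the members ran from 50.1 to 517.8 kb with a median of 80.9 kb. In all, 175 members spanned 50 to 100 kb, 65 spanned 100 to 200 kb and 27 spanned 200 kb or more. Their host genes, matched for 266 of 267, had a median length of 325.6 kb, against 81.4 kb for hosts of shorter exonic circRNAs. A member covered a median of 27.5% of its host gene and a shorter circRNA 12.7%. Annotated exonic circRNAs were brighter than the array as a whole, long and shorter alike. The median level was -0.17 for the members and -1.30 for all tested circRNAs, while shorter ones had medians of -0.52 in the higher table, -0.41 in the lower table and 0.32 in the HuD-bound list. Of the 267 members, 56 lay in the brightest of the 10 classes of tested circRNAs while 2 lay in the dimmest. On all 6 arrays, 261 of the 267 were well above background. All 267 passed the filter on dim probes.

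In the deposited tables, long circRNAs made up a larger part of the higher circRNAs than of the lower ones. Of 949 exonic circRNAs in the higher table, 161 were members (17.0%), and of 890 in the lower table, 60 were (6.74%). Put the other way, 161 of 221 long circRNAs of the tables were higher in HuD KO (72.9%), against 788 of 1618 others (48.7%). The share rose through the shorter span classes, from 35.2% of 264 circRNAs under 2 kb to 41.0% of 507 from 2 to 10 kb, 50.3% of 368 from 10 to 20 kb and 63.0% of 479 from 20 to 50 kb. It was 74.3% of 148 from 50 to 100 kb and 69.9% of 73 at 100 kb or more. The study chose these tables on the same 6 arrays, so their direction is a description and was not tested.

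**Figure D1:**
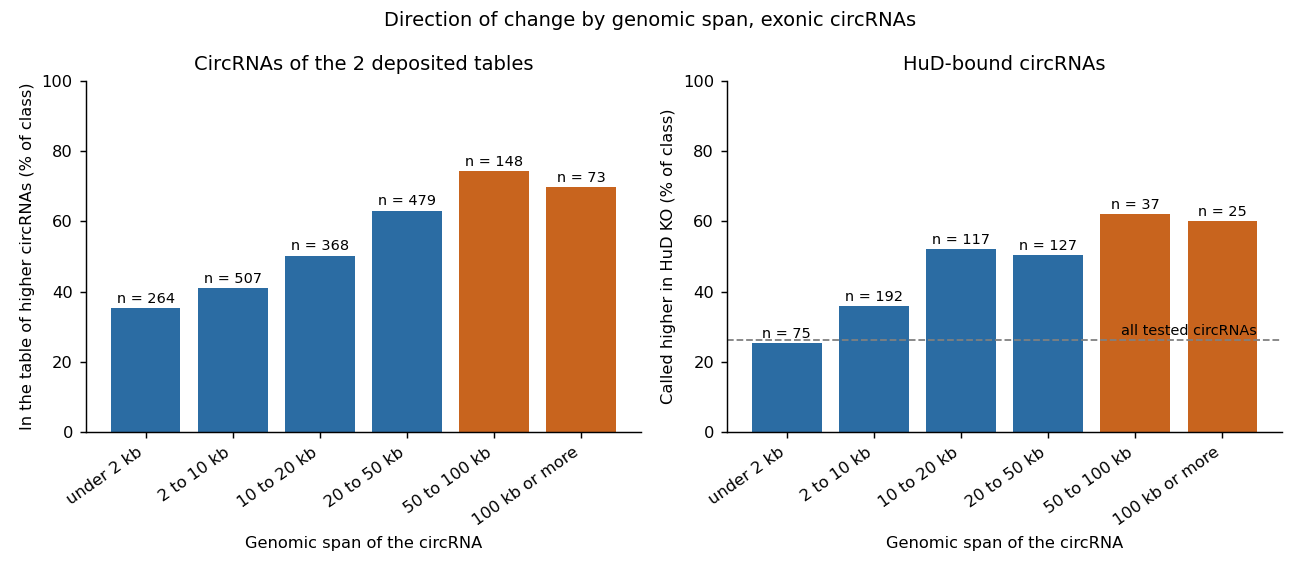
Share of exonic circRNAs higher in HuD KO by class of genomic span, in percent of the class. Left, circRNAs of the 2 deposited tables, where the bars climb from 35.2% under 2 kb to 74.3% at 50 to 100 kb. Right, HuD-bound circRNAs called by limma at the 75th percentile scaling, from 25.3% to 62.2%. The dashed line is at the 26.1% of all tested circRNAs, which are dimmer than the bound ones. Orange bars are classes of 50 kb or more and n is the number of circRNAs. Under scaling on the circRNA control probes the right panel's bars fall to 3.13% from 2 to 10 kb and to 4 of 25 at 100 kb or more.

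The HuD-bound list was not chosen on these arrays and gave the comparison that did not rest on the tables. Of its 62 long members, 38 were called higher (61.3%), 7 lower (11.3%) and 17 neither, with a median log2 change of 0.54 and quartiles of 0.03 and 1.04. Of its 511 tested shorter exonic circRNAs, 213 were called higher (41.7%) and 75 lower (14.7%), with a median of 0.35. Both shares of higher circRNAs lay above the 26.1% of all tested circRNAs, whose median was -0.11. The bound circRNAs were also brighter, with median levels of 0.54 (long) and 0.32 (shorter) against -1.30 over all tested. Over all tested circRNAs, the brightest classes of signal had median changes of 0.19, 0.33 and 0.48. The part of signal in the excess over all tested circRNAs was not tested. In 50 of the 62, or 80.6%, the groups did not overlap, against 66.3% of the shorter ones and 70.2% over all.

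Against the mean of the 3 WT arrays, which all comparisons share, the median change of the long HuD-bound circRNAs was 0.57 on HuD KO 1, 0.56 on HuD KO 2 and 0.49 on HuD KO 3, and that of the shorter ones 0.34, 0.40 and 0.24. The sign of the long median depended on the scaling. Scaling on the circRNA control probes made it -0.24, with 8 members called higher and 19 lower, while the shorter ones had a median of -0.43, a gap of 0.19 that this scaling cannot alter, since it shifts all circRNAs of an array alike. Quantile normalization, which can alter it, gave medians of 0.43 and 0.31, a gap of 0.12. Of the 62, 46 were not in the deposited tables. These had 23 higher and 6 lower calls and a median of 0.39.

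By span class, the median change of the bound circRNAs was near one value from 10 kb upward. It was 0.09 under 2 kb (75 circRNAs), 0.22 from 2 to 10 kb (192), 0.53 from 10 to 20 kb (117) and 0.52 from 20 to 50 kb (127). It was 0.54 for the 37 from 50 to 100 kb and 0.54 for the 25 of 100 kb or more. The share called higher was 52.1% from 10 to 20 kb and 50.4% from 20 to 50 kb, and 62.2% and 60.0% in the classes above 50 kb. Across the 573 bound exonic circRNAs, Spearman's rho was 0.21 between span and change, 0.39 between level and change and 0.10 between span and level. The circRNAs share the 6 arrays, and level enters the change, so these are descriptions.

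Signal was matched by dividing the circRNAs into 10 bands of mean level over the 6 arrays. In the deposited tables the long circRNAs had the larger share of higher circRNAs in 10 of 10 bands, from 58.1% to 90.0% where the shorter ones had 42.1% to 54.7%. Weighted by the number of long members, the shares were 72.9% and 48.8%. Among HuD-bound circRNAs the long median exceeded the shorter one in 5 of 10 bands, and the weighted difference was 0.24 ± 0.05 (SD over the 3 HuD KO arrays, each against the WT mean). The gap was widest in 3 bands, at 0.60 against 0.01 in band 3 (9 long circRNAs), 1.25 against 0.60 in band 9 (5 long circRNAs) and 1.26 against 0.63 in band 10 (11 long circRNAs). In the dimmest band the medians were -0.32 and -0.27, and in band 4 they were -0.21 and 0.27.

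**Figure D2:**
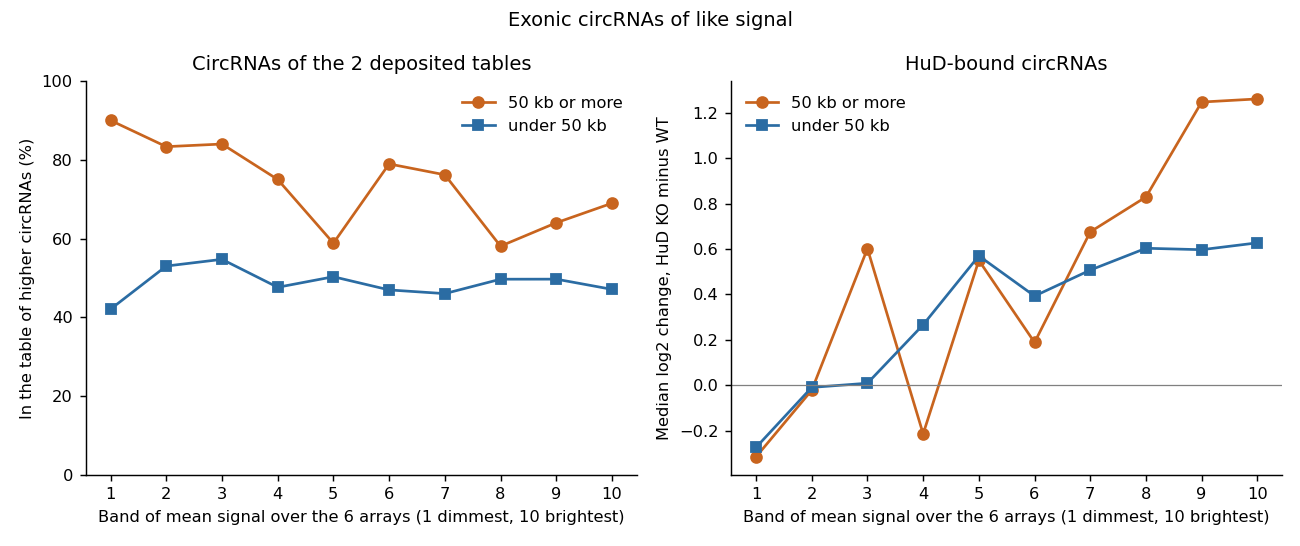
Long (orange circles) and shorter (blue squares) exonic circRNAs in 10 bands of mean signal. Left, percent of the deposited circRNAs that are in the higher table, where the long ones lie above in every band, by 58.1% to 90.0% against 42.1% to 54.7%. Right, median log2 change of HuD-bound circRNAs, where the long ones lie above in 5 of 10 bands, with 4 to 11 long circRNAs in a band. Changes are at the 75th percentile scaling, and under scaling on the circRNA control probes the median of the long ones is -0.24.

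Within a table, every circRNA entered through the size of its change on these arrays, so sizes there are a description. The weighted difference of medians within signal bands was -0.005 ± 0.014 in the higher table and 0.006 ± 0.091 in the lower table (SD over the 3 HuD KO arrays), and the latter became -0.13 with 20 bands and 0.24 with bands of probe GC content. Members of the higher table had a median log2 change of 1.32, equal to that of the shorter circRNAs. Members of the lower table had a median of -1.68 against -1.87 and were brighter, with a median level of 0.68 against -0.41.

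The length of the host gene moved with span and with change. Spearman's rho in the bound list was 0.56 between span and host length and 0.26 between host length and change. With only host genes of 100 kb or more, the bound long circRNAs had a median of 0.54 (60 circRNAs, 61.7% higher) and the shorter ones of 0.50 (198, 52.5% higher), and the difference within signal bands was 0.04. In hosts of 100 to 200 kb the long median was 0.32 against 0.54, in hosts of 200 to 400 kb 0.55 against 0.36, and in hosts of 400 kb or more 0.57 against 0.50. In the deposited tables the long circRNAs kept the larger share of higher circRNAs in hosts of 100 to 200 kb (80.0% against 59.2%), 200 to 400 kb (70.0% against 60.0%) and 400 kb or more (74.4% against 55.4%), but not in the 10 from hosts of 50 to 100 kb (4 of 10 against 51.7%). The separate parts of span and host length were not tested.

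The base composition of the probe moved with direction too. In the deposited tables, shorter circRNAs were in the higher table in 72.5% of the lowest of 5 classes of probe GC content (31.7 to 41.7% GC) and in 15.5% of the highest (51.7 to 66.7% GC), and the long ones in 83.3% and 37.0%. The long share was the larger in 5 of 5 classes. Median GC content was 43.3% in long and 45.0% in shorter HuD-bound circRNAs. Matching on 5 bands of GC content in place of signal gave a difference of 0.17 in the bound list.

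The longest member was circAnks1b mmu_circRNA_22415 (chr10:90163160-90680919, 517.8 kb), from a gene for a postsynaptic scaffold protein. Its level was 0.99, 0.78 and 0.58 in HuD KO and -0.57, -0.67 and -0.63 in WT. All HuD KO arrays lay above all WT arrays, and the log2 change was 1.41 ± 0.15 (SE, n = 3 against 3, limma adjusted p = 0.000176). It was in the higher table, so its rise was a condition of entry and its p-value is a description. The same holds for the direction of all of the 10 longest except circAtxn1. A second circle of the gene, mmu_circRNA_002573 (53.6 kb, HuD-bound), was at 5.45, 5.07 and 4.49 in HuD KO and 3.68, 3.43 and 3.34 in WT, without overlap, and rose by 1.52.

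The next longest went the other way. circSox5 mmu_circRNA_41052 (chr6:144155096-144625686, 470.6 kb) comes from a transcription factor gene of neuronal and glial development. It was at -3.97, -3.96 and -2.58 in HuD KO and -0.53, -0.13 and -0.33 in WT. The groups were well apart, with HuD KO 3 nearest to WT, and the change was -3.17 ± 0.36 (SE, limma adjusted p = 0.000225). circPtprg mmu_circRNA_27034 (389.0 kb), from a receptor tyrosine phosphatase gene, fell by 1.39.

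The other 7 of the 10 longest were higher. circPtprd mmu_circRNA_36987 (438.1 kb), from another receptor phosphatase of the synapse, rose by 1.12. circRabgap1l mmu_circRNA_21123 (398.9 kb), from a GTPase-activating protein gene, rose by 1.89. circAtxn1 mmu_circRNA_26262 (390.0 kb), from the ataxin 1 gene, was the only HuD-bound one of the 10. Its levels were tight, at 1.63, 1.64 and 1.51 in HuD KO and 0.80, 0.79 and 0.65 in WT, a rise of 0.85 that dropped to 0.07 under scaling on the control probes. circCntnap2 mmu_circRNA_40211 (361.5 kb), from a neurexin-family adhesion gene, rose by 1.05, and circVps13b mmu_circRNA_28406 (355.8 kb) by 1.12. Under scaling on the control probes circPtprd, circCntnap2 and circVps13b also lost their calls, at 0.34, 0.26 and 0.34. The 2 Dmd circles, mmu_circRNA_45568 and mmu_circRNA_45547 (375.3 and 353.3 kb), come from the X-linked dystrophin gene and rose by 2.005 and 1.96. Each was well above background on 2 of 3 WT arrays only, and both lost their call under normexp background correction, the second also on the control probes and with the methods' t-test.

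**Figure D3:**
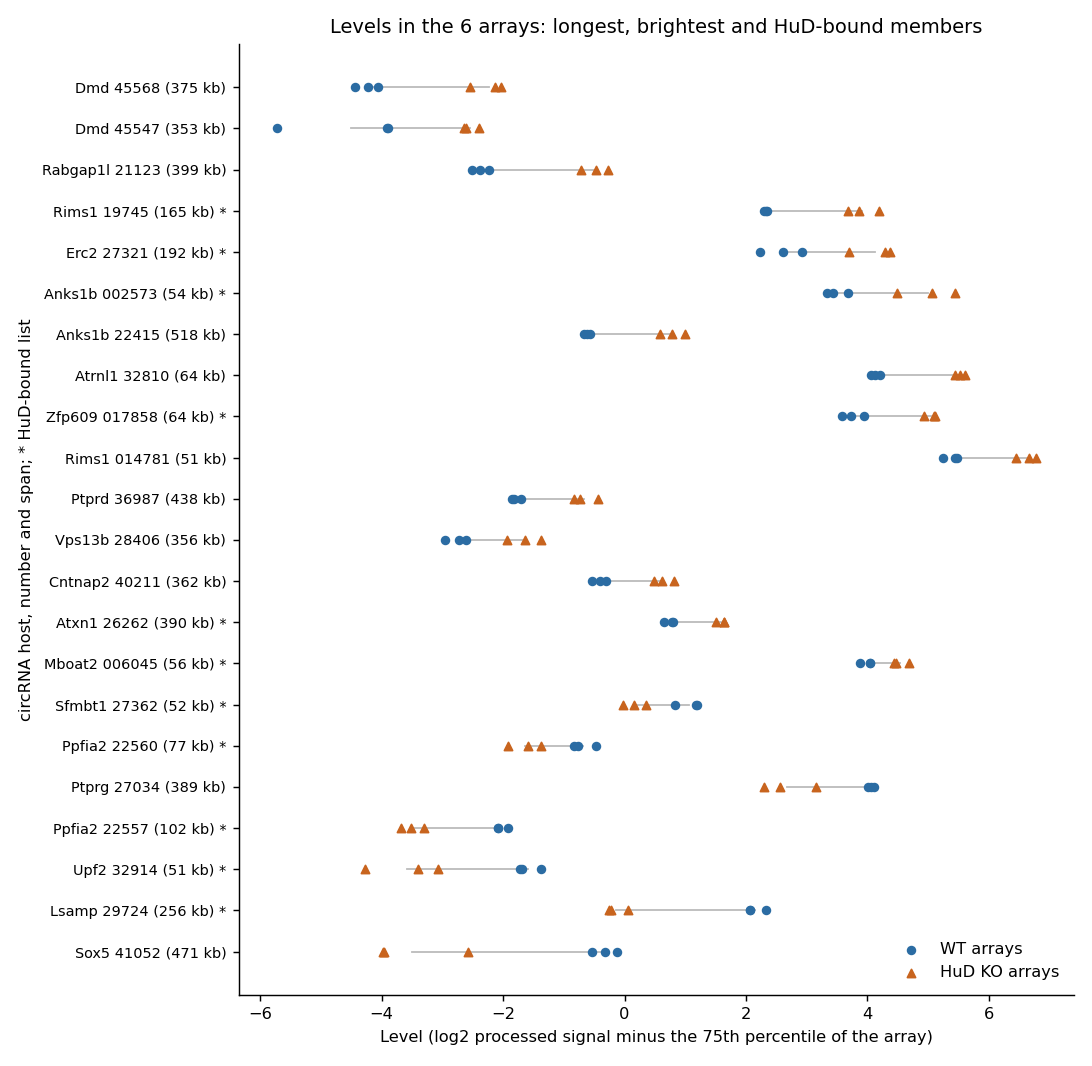
Levels of 22 circRNAs in the 6 arrays (log2 processed signal minus the 75th percentile of the array), for the 10 longest, the 5 brightest and the HuD-bound circRNAs named for large rises and falls. Blue circles are WT arrays, orange triangles HuD KO arrays, and the grey line joins the 2 means. In all 22 the groups do not overlap, against 70.2% of all tested circRNAs. Circles from the deposited tables or named for their change were chosen on these arrays, so this count is a description. The changes run from -3.17 for circSox5 to 2.005 for a Dmd circle. circMboat2 turns to -0.24 under scaling on the circRNA control probes.

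The 5 members with the highest signal, which depends on the probe as well as the circle, were modest in span. All but circMboat2 were in the higher table, so their rise was a condition of entry. circRims1 mmu_circRNA_014781 (chr1:22346292-22397563, 51.3 kb) had the highest mean level. Rims1 encodes an active zone scaffold for vesicle release. The level was 6.78, 6.65 and 6.45 in HuD KO and 5.48, 5.44 and 5.25 in WT, without overlap, and the change was 1.24 ± 0.15 (SE, limma adjusted p = 0.000297). circAtrnl1 mmu_circRNA_32810 (63.9 kb) rose by 1.39 and circZfp609 mmu_circRNA_017858 (64.5 kb, HuD-bound) by 1.29. The short circle that shares its end exon with the latter, mmu_circRNA_004501 (0.90 kb, HuD-bound), changed by 0.59. circMboat2 mmu_circRNA_006045 (56.4 kb, HuD-bound), from a lipid acyltransferase gene, was at 4.44, 4.47 and 4.68 in HuD KO and 3.88, 4.04 and 4.05 in WT. This gave 0.54 ± 0.14 (SE, limma adjusted p = 0.0106), and -0.24 with control probe scaling.

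Large rises among the HuD-bound members included those of active zone genes. Both circles given here were also in the higher table. circRims1 mmu_circRNA_19745 (chr1:22373343-22538623, 165.3 kb) was at 4.19, 3.87 and 3.69 in HuD KO and 2.35, 2.29 and 2.34 in WT. All HuD KO arrays lay more than 1 log2 unit above all WT arrays, and the change was 1.59 ± 0.16 (SE, limma adjusted p = 0.000142). circErc2 mmu_circRNA_27321 (191.6 kb) was at 4.37, 4.29 and 3.70 in HuD KO and 2.93, 2.60 and 2.23 in WT, without overlap, and rose by 1.53.

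HuD-bound members called lower numbered 7. circLsamp mmu_circRNA_29724 (chr16:41888914-42144700, 255.8 kb) comes from a limbic cell adhesion gene and was also in the lower table. It was at -0.25, -0.22 and 0.05 in HuD KO and 2.32, 2.07 and 2.06 in WT, a change of -2.29 ± 0.15 (SE, limma adjusted p = 3.99e-05). circUpf2 mmu_circRNA_32914 (51.3 kb), from a nonsense-mediated decay factor gene, was at -3.07, -3.40 and -4.27 in HuD KO and -1.37, -1.68 and -1.73 in WT, a change of -1.99 ± 0.30 (SE, limma adjusted p = 0.000782). Both Ppfia2 circles, from the presynaptic scaffold liprin alpha 2, were lower, mmu_circRNA_22557 by -1.47 and mmu_circRNA_22560 by -0.94. circSfmbt1 mmu_circRNA_27362 changed by -0.91, circTiam1 mmu_circRNA_30006 by -0.75 and circDlgap1 mmu_circRNA_011419 by -0.52. The 17 not called lay between -0.38 and 0.54.

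The 3 largest falls of all members came from circles that were bright in WT. circFam135a mmu_circRNA_19765 (chr1:24020674-24086611, 65.9 kb) was at 4.51, 4.41 and 3.88 in WT and -3.21, -2.79 and -1.05 in HuD KO. The change of -6.61 ± 0.51 (SE, limma adjusted p = 5.58e-05) was the lowest of the 267. circIgsf21 mmu_circRNA_37852 (90.4 kb), from a synaptic immunoglobulin-domain gene, was at 5.62, 5.70 and 5.46 in WT and -1.01, -0.88 and 1.25 in HuD KO. circSil1 mmu_circRNA_31583 (120.5 kb), from a co-chaperone gene of the endoplasmic reticulum, changed by -5.43. The next, circLekr1 mmu_circRNA_35519 (94.8 kb), was at -1.16, -0.94 and -1.44 in WT and -6.56, -4.52 and -4.28 in HuD KO. Its change was -3.94, and it was well above background on 2 of 3 HuD KO arrays only. In all of these and in circSox5, HuD KO 3, the array of the separate scan, was the HuD KO array nearest to WT. The same held for circTtll5 mmu_circRNA_25559, from a tubulin polyglutamylase gene, which changed by -3.01. All of these were in the lower table, so their fall was a condition of entry and not a result.

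Large rises in the tables, beside circUty, included those of Strbp, Cadps2 and Kcnt2. circStrbp mmu_circRNA_33363 (66.6 kb), from a double-stranded RNA-binding protein gene, was at 2.17, 2.16 and 1.40 in HuD KO and -0.65, -0.71 and -0.64 in WT. circCadps2 mmu_circRNA_39907 (102.8 kb), from a regulator of dense-core vesicle release, had 2 usable HuD KO values, 0.91 and 0.77, since the spot on HuD KO 1 was flagged and dropped from the fit, and -1.83, -1.75 and -1.18 in WT. circKcnt2 mmu_circRNA_20969 rose by 2.37.

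Several hosts gave more than 1 long circle. By the sign of the change, called or not, 35 of 42 hosts with 2 or 3 members had all their members above 0. All were below 0 in 4 (Dlgap1, Lekr1, Ppfia2, Ttll5) and 3 had both signs (Cwc27, Opcml, Rbfox1). Over all members, 193 of 267 had a change above 0 (72.3%). The sign of members from the tables was a condition of entry, so these counts are a description. Kcnt2, Rabgap1l and Rims1 were among the hosts with 3 members. In Kcnt2, a sodium-activated potassium channel gene of 368.4 kb, the members rose by 1.77, 1.85 and 2.37 and the shorter circles by 1.73 and 1.33. The Rims1 members rose by 1.59, 1.24 and 1.09 and those of Rabgap1l by 1.89, 1.64 and 1.21. The smallest rise of each, in mmu_circRNA_19748 and mmu_circRNA_21128, lost its call on the control probes, at 0.30 and 0.43. In Rims1, mmu_circRNA_19748 ends about where mmu_circRNA_014781 begins, 409 kb into the gene.

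**Figure D4:**
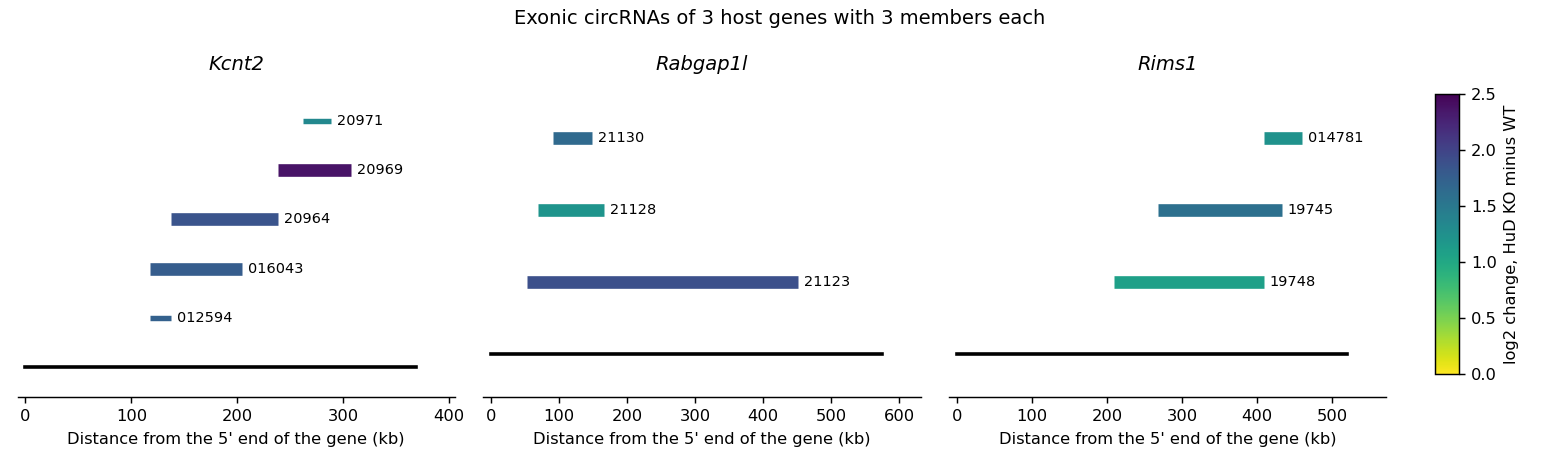
Exonic circRNAs of 3 hosts with 3 members, drawn as bars at their distance from the gene's 5′ end (kb) above the gene (black line). Thick bars are circles of 50 kb or more, thin bars shorter ones, and the colour is the log2 change, HuD KO minus WT. All 11 circles are higher in HuD KO, from 1.09 to 2.37. The circles drawn as thick bars are all in the higher table, so their rise was a condition of entry.

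In Opcml, a neural adhesion gene, mmu_circRNA_43912 (HuD-bound) rose by 0.99 and mmu_circRNA_43913 changed by -1.004. In Cwc27, a spliceosome gene, the changes were 1.13 and -1.61. For Rbfox1, whose protein is itself a neuronal splicing regulator, mmu_circRNA_29172 changed by -1.71 and the HuD-bound mmu_circRNA_29181 by 0.28, which was not called.

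Within the same host, long circles did not differ from shorter ones in one direction. Of 86 hosts with both, the long median was the higher in 38 and the median difference was -0.05. In the HuD-bound list alone, it was the higher in 12 of 21 hosts, with a median difference of 0.20. In 14 of the 86 the signs were opposite. Circles of the deposited tables entered through their change on these arrays, so these counts and differences are a description. In Fam135a the long circle, from the lower table, changed by -6.61 and the 2 shorter circles inside it had a median of 1.70. Foxp1, a striatal transcription factor gene, was the reverse. Its 2 long HuD-bound circles rose, mmu_circRNA_40607 by 1.29 and mmu_circRNA_40606 by 0.48, while its shorter HuD-bound circle mmu_circRNA_40615 changed by -3.69. Of these, mmu_circRNA_40607 was also in the higher table and mmu_circRNA_40615 in the lower table, so their direction was a condition of entry. Under control probe scaling mmu_circRNA_40607 lost its call, at 0.50. mmu_circRNA_40606 kept its call in only 8 of 18 alternatives. It turned to -0.30 under control probe scaling and lost the call with quantile normalization, the methods' t-test, the replicate block, the scan block and when HuD KO 1, HuD KO 2 or any WT array was left out.

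The share called higher was 68.9% over all members, itself set by the tables. By the role of the host gene, it ran from 4 of 9 for RNA-binding and RNA-processing genes to 21 of 24 for kinase, phosphatase and second messenger genes. No difference between lists was tested. Members in the tables entered through their change, so the counts below describe them and the HuD-bound counts are given apart. Of 38 members from synaptic adhesion and axon guidance genes, 27 were higher, 10 lower and 1 not called, with a median of 1.06. Under scaling on the control probes they were 10 higher and 11 lower with a median of 0.27, and normexp gave a median of 0.54. The falls included circNegr1 mmu_circRNA_36349 (-2.18), from an immunoglobulin-domain adhesion gene, and those of the netrin receptor Dcc (-1.61) and of Reln (-1.15), the layer-forming matrix protein. The rises included circCntnap2 mmu_circRNA_40213 (2.07). Of the 8 HuD-bound ones, 6 were higher, 1 lower and 1 not called.

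Of 31 members from synaptic scaffold and vesicle release genes, 22 were higher and 6 lower, with a median of 1.28. The control probes gave 14 higher and 8 lower with a median of 0.50, and normexp a median of 0.65. The 2 circles of Erc1, an active zone gene, shared 46 probe bases and rose by 2.51 and 1.73. The larger, mmu_circRNA_017168, was well above background on 1 of 3 WT arrays and its change shrank to 0.12 under normexp background correction. circSv2b mmu_circRNA_41706 (50.3 kb), from a synaptic vesicle glycoprotein gene, was at -1.03, -0.90 and -0.74 in HuD KO and -2.98, -3.04 and -3.12 in WT. circGrip1 mmu_circRNA_22714, from a glutamate receptor scaffold gene, changed by -2.34. The 13 HuD-bound ones were split into 7 higher, 3 lower and 3 not called.

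Of 16 members from ion channel and neurotransmitter receptor genes, 13 were higher and 2 lower, with a median of 1.21. On the control probes 7 were higher and 2 lower, with a median of 0.42. The lower ones included that of the calcium channel Cacna1a (-1.61). circKcnh5 mmu_circRNA_25343, from a voltage-gated potassium channel gene, rose by 1.82. Of 4 HuD-bound ones, 3 were higher and 1 not called.

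Among the lists by role, that of kinase, phosphatase and second messenger genes was the one without a member called lower. The list did not hold every such gene. circPtprg (-1.39), from a receptor phosphatase gene, and circEpha5 (-1.30), from a receptor kinase gene, were outside it. Of 24 members, 21 were higher, 0 lower and 3 not called, with a median of 1.31 at the 75th percentile scaling. Under scaling on the control probes, 11 were higher and 3 lower, with a median of 0.53. circStk39 rose by 1.49 and circGsk3b, HuD-bound, by 1.06. The 3 not called were HuD-bound, from Ppp2r2b (-0.14), Ppm1h (-0.08) and Fyn (0.01), and the other 7 HuD-bound ones were higher. Shorter exonic circRNAs of the list in the tables were in the higher table in 51 of 62.

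Of 16 members from small GTPase regulator genes, 12 were higher and 4 lower, with a median of 1.12. On the control probes 6 were higher and 4 lower, with a median of 0.34, and normexp gave a median of 0.33. circRapgef6 mmu_circRNA_23378, with 2 usable HuD KO values of -2.18 and -1.91 and WT values of 0.28, 0.32 and 0.16, changed by -2.30, and circTiam2 mmu_circRNA_30168 by -2.28. circRalgapa1 mmu_circRNA_25120 rose by 1.98. The single HuD-bound one, circTiam1, was lower.

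Transcription and chromatin genes gave 30 members, 18 higher, 8 lower and 4 not called. Their median was 0.69, which turned to -0.09 under scaling on the control probes, with 7 higher and 11 lower. circArid5b mmu_circRNA_22170 rose by 1.84. circZfp536 mmu_circRNA_41322, which is also in the oligodendrocyte marker list, was at 0.26, 0.38 and 0.06 in WT and -2.30, -2.47 and -1.17 in HuD KO. Of 13 HuD-bound ones, 8 were higher, 1 lower and 4 not called.

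The smaller lists were mixed. Of 9 members from RNA-binding and RNA-processing genes, 4 were higher and 3 lower, with a median of 0.28 that became -0.51 on the control probes (2 higher, 4 lower). circRngtt mmu_circRNA_36616 (123.1 kb), from the mRNA capping enzyme gene, rose by 1.78, and circKhdrbs2 mmu_circRNA_19867 changed by -1.78. Cytoskeleton and motor protein genes had 5 higher and 4 lower of 10, with a median of 0.37 that became -0.41 (2 higher, 5 lower) and -0.02 with normexp. The falls included circClip1 mmu_circRNA_39349 (-1.48) and the rises circCobl mmu_circRNA_22910 (1.46). Ubiquitin pathway genes had 6 higher and 1 lower of 8, with a median of 1.15 that became 0.37 on the control probes (3 higher, 2 lower) and 0.54 with normexp. Among them were 2 circles of the E3 ligase Hace1 (2.03 and 1.70), circHerc1 mmu_circRNA_44517 (1.38) and circUsp34 mmu_circRNA_23000 (1.18), which lost its call on the control probes (0.39). The 85 members in none of the lists had 56 higher and 28 lower calls and a median of 1.08.

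**Figure D5:**
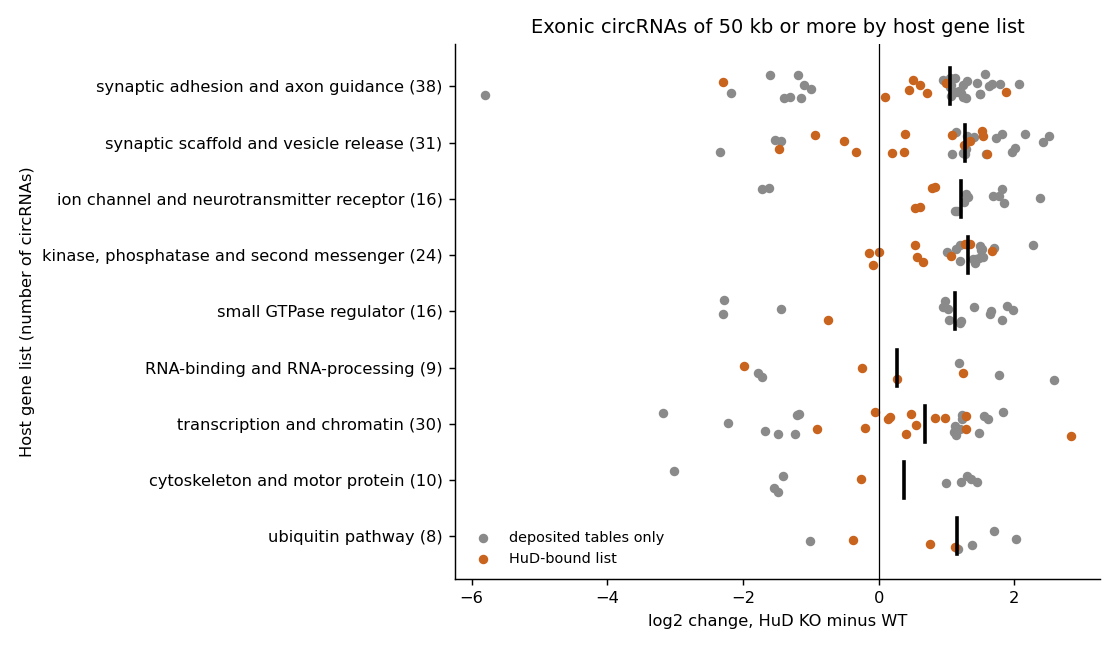
Log2 change (HuD KO minus WT) of the long exonic circRNAs by host gene list, 1 point per circRNA, with the number per list in parentheses. Orange points are in the HuD-bound list, grey points in the deposited tables only, and the black bar is the median. The kinase list, which does not hold Ptprg and Epha5, has no point below -0.14. The falls beyond -5 belong to the adhesion list at -5.81. Under scaling on the circRNA control probes the medians of the RNA-binding, transcription and cytoskeleton lists turn to -0.51, -0.09 and -0.41.

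The deposited annotation named 5 predicted miRNA partners per circRNA. Over the 221 members of the tables the most frequent were miR-1903, in 34 (15.4%, against 10.1% of the 1618 shorter exonic circRNAs), and miR-7092-3p, in 25 (11.3% against 7.60%). The next was miR-6946-3p, in 15 (6.79% against 5.44%). miR-103-1-5p and miR-107-5p, in 14 each (6.33%, against 2.41% and 3.65%), have the same seed. These were picked from 1508 miRNAs for being frequent among the members, so their larger shares are a description. The mature sequences from RefSeq (GRCm38.p6) are printed, except that of miR-6946-3p, with bases 2 to 8, the seed, in capitals. These are predictions and no binding was measured.
mmu-miR-1903: cCUUCUUCuucuuccugagaca
mmu-miR-7092-3p: uGUUCUUUguuuuguuugccuuag
mmu-miR-103-1-5p: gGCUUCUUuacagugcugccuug
mmu-miR-107-5p: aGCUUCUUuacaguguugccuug

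The circles nearest to the 50 kb limit all came from the deposited tables, and so through their change. The members just inside were those of Akap7 (50.1 kb, 1.48), Tiam2 (50.2 kb, -2.28) and Sv2b (50.3 kb, 2.15). Those just outside were from Mycbp2 (49.5 kb, -1.57), Ptpn4 (49.5 kb, 1.55) and Ino80 (49.1 kb, 1.37).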

How the data were processed

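Striatal circRNAs of 3 HuD KO mice and 3 WT littermates were measured on 1-colour Arraystar Mouse circRNA arrays V2, scanned per the file headers with Agilent Feature Extraction 11.0.1.1. The authors deposited the processed signal intensity per spot, with background subtracted and no normalization between arrays, and tables of circRNAs called higher or lower. The tables' annotation, positions and junction probes were used. Their fold changes, p-values and normalized values hold the authors' comparison and were not used. The HuD-bound list is a supplementary table of the study, of which no value was used. The aligner or build behind the positions is not given in the sources used here.

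From the deposited intensity, log2 levels minus the 75th percentile of the 14236 circRNA probes were computed, spots flagged as outliers were dropped, and 13431 circRNAs well above background on all 3 arrays of a group, with at least 2 values in each group, were tested with limma 3.58.1 in R 4.3.3 (HuD KO minus WT, Benjamini-Hochberg over all tested, called at an adjusted p under 0.05). A log2 change is a difference of levels. The precision is limited by 3 arrays per group. The fit was tested on simulated data. Host genes and miRNAs came from RefSeq (GRCm38.p6).

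The members and the gene lists were chosen with earlier results of these data known. CircRNAs were named by rule: the 10 longest, the 5 brightest, the HuD-bound ones with the 5 largest rises and falls, the 5 largest rises and falls among those above background on all 6 arrays, the members of the hosts with most members (those with 3 each, since the next place was shared), up to 4 per gene list and the 3 on either side of 50 kb. Others were named after their values were seen, and a few circRNAs that the rule chose are not reported here. Replicate numbers did not pair the arrays. Alternatives covered background correction (normexp, on median signals because mean signals were not in the files), scaling, filters, the methods' t-test, blocks, each array left out, span limits and the bands. Circles on chromosomes X and Y left out, host genes of 100 kb or more and bands of GC content were chosen after seeing the data.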

Additional observations from a re-analysis of the deposited data

How the results depend on the processing

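Under the alternatives, the number of members called higher was 184 with the reported settings and 86 under scaling on the circRNA control probes, and between 173 and 183 with 1 array left out. The number called lower was 66 and ran from 53 to 78 over all alternatives. For the HuD-bound members, the 38 higher calls became 8 on the control probes, 25 with the scan as a random block, 16 at 2-fold and an unadjusted p under 0.05, 71 at a span of 30 kb or more and 15 at 100 kb or more, and ran from 28 to 38 with 1 array left out. The 7 lower calls became 3 without scaling, 19 on the control probes, 3 at the fold threshold, 12 at 30 kb and 3 at 100 kb, and were 7 to 8 with 1 array left out. Their median of 0.54 became 0.45 with normexp, 0.43 with quantile normalization, 0.74 with median scaling, 1.06 without scaling and -0.24 on the control probes, and ran from 0.51 to 0.60 with 1 array left out. The median of all tested circRNAs was -0.11, and 0.12 with quantile normalization, 0.41 without scaling and -0.89 on the control probes. The share of higher calls over all tested circRNAs was 26.1%, and 34.3% with quantile normalization, 34.8% with median scaling, 39.8% without scaling and 4.49% on the control probes, beside 37.2%, 28.2%, 31.8%, 19.0% and 63.1% lower. The cause was not tested.

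The difference of 0.24 between long and shorter HuD-bound circRNAs of like signal became 0.19 with normexp, 0.17 at 30 kb, 0.094 at 100 kb, 0.14 with 20 bands, 0.04 with host genes of 100 kb or more and 0.17 with bands of GC content, and ran from 0.20 to 0.27 with 1 array left out. In the higher table the difference of -0.005 became -0.030 with normexp, 0.064 at 30 kb, 0.091 at 100 kb, 0.0349 with 20 bands, 0.043 with signal from WT arrays, 0.033 with each host once, 0.021 with host genes of 100 kb or more and 0.027 with GC bands, and ran from -0.046 to 0.036 with 1 array left out. The lower table's 0.006 became -0.13 with 20 bands and 0.24 with GC bands.

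With the replicate block the HuD-bound members had 33 higher and 7 lower calls, and same-numbered arrays shared only a number (correlations of their deviations -0.009, -0.028 and -0.076). With the methods' t-test they had 32 higher and 9 lower. Of 60 named circRNAs, 45 kept their direction and call in all alternatives run. circMboat2 turned to -0.24 and circFoxp1 mmu_circRNA_40606 to -0.30 on the control probes, and 25 of 1073 comparisons lost the call. Dim circles such as those of Dmd and Erc1 are limited by their signal over background in WT.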
